A study of Mus musculus with 10 samples.

Results

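The 9 mouse genes Odc1, Amd1, Srm, Oaz1, Sat1, Gatm, Gamt, Arg2 and Ckb lie on the way from arginine to polyamines and to creatine, and were followed in whole kidney. Odc1, Amd1 and Srm belong to polyamine synthesis, Oaz1 and Sat1 to its control and breakdown, and Gatm and Gamt to creatine synthesis, while Arg2 makes ornithine from arginine and Ckb uses creatine. Members were taken as all probe sets whose platform annotation names only 1 of these genes. This gave 9 probe sets for 7 of the 9 genes, out of 8251 genes with such a probe set. No probe set named Amd1 alone, and the 2 that name Oaz1 also name a pseudogene of it, so neither gene has a value here.

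The tested animals were 5 transgenic mice (TG 614, 619, 652, 657 and 661) that carry human wild-type FGF23 behind the collagen promoter that the labels write as 1 alpha col 1, a promoter active in collagen-producing cells such as those of bone. They were set against 5 wild-type littermates (WT 612, 618, 650, 658 and 663). All mice were on a C57Bl background and 8 weeks old, and each kidney RNA went to 1 Affymetrix MG_U74Av2 array. The sample titles give the groups, while the genotype field reads transgenic for all 10. Littermate pairs, sex and the number of transgenic lines are not given by the labels.

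Ornithine is decarboxylated by ornithine decarboxylase (Odc1) to putrescine, which spermidine synthase (Srm) turns into spermidine with an aminopropyl group that S-adenosylmethionine decarboxylase (Amd1) prepares. Antizyme (Oaz1) sends ornithine decarboxylase to degradation, and the acetyltransferase Sat1 starts polyamine breakdown and export. In the kidney, arginine also feeds creatine: the amidinotransferase Gatm of the proximal tubule makes guanidinoacetate, and the methyltransferase Gamt, best known from liver, methylates it to creatine. In mouse kidney Odc1 is a classical androgen-induced gene, with far more enzyme in males than in females.

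Values are log2 GCRMA values, 1 per probe set and array, and a log2 value of 4 was used as the floor below which a probe set was taken as not reliably measured. A probe set was tested when at least 5 of the 10 arrays lay over that floor, which left 6814 probe sets. The correlation between arrays over all probe sets ran from 0.98 to 0.998. Xist and the Y-linked Eif2s3y separated 4 females (TG 614, TG 652, WT 612 and WT 650) from 6 males, with 2 females and 3 males per group. Xist read at least 9.94 in females and at most 3.36 in males. The kidney was recognisable by its segment markers: Lrp2 and Slc34a1 of the proximal tubule, Umod of the thick ascending limb and Aqp2 of the collecting duct lay over the floor on all 10 arrays. Markers of skeletal muscle (Ckm, Acta1, Myh1 and Myh4) and of the adrenal gland (Star and Cyp21a1) lay over it on 0 arrays, while Pvalb, shared by skeletal muscle and the distal convoluted tubule, lay over it on all 10. Smooth muscle Acta2, Tagln and Myh11 also lay over it on 10 arrays, and Cnn1 on 0. Among the fat markers, Lep lay just over it on 10 arrays (4.35 to 4.87), Fabp4 on 7, Adipoq on 3 and Cidec on 0. Of 6 liver markers Alb lay over it on 10 arrays, between 4.50 and 7.53 in TG kidneys and between 4.25 and 6.23 in WT kidneys, and the other 5 on 0.

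The promoter windows of Gamt and Odc1, the members that lay lower in all TG animals than in the WT animals of the same sex, are shown as RefSeq annotates them (GRCm38.p6, 250 bases before to 50 after the transcript start, read in the direction of the gene). Windows were found for 7 of the 9 genes. Capitals mark the GC box, GGGCGG on either strand.
Gamt, chr10:80260963-80261262, minus strand: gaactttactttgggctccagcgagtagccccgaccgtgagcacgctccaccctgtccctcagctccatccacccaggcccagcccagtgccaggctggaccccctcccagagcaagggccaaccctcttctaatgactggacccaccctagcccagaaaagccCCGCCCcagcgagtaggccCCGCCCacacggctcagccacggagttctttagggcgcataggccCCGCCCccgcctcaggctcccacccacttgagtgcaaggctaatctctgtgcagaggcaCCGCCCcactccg
Odc1, chr12:17544623-17544922, plus strand: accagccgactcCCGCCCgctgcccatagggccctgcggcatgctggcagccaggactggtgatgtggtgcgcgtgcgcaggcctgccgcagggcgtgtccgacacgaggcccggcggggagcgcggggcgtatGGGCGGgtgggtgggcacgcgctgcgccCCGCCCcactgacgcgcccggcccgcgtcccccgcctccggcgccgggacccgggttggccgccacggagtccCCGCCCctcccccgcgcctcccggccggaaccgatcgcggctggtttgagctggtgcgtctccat
Each window held 4 GC boxes that did not overlap one another. Over 32851 mouse promoter windows of this length, 35.7% held at least 1. Neither window held CCAAT (in 37.4% of all windows), TATAAA (13.6%) or the androgen response half-site AGAACA (19%) on either strand.

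Of the 7 members, 1 passed the test between TG and WT kidneys, Gamt, which fell. In the same limma fit 1.22% of all probe sets tested passed. With sex in the model 3 members passed, Odc1 and Gamt lower and Arg2 higher, where 4.18% of all probe sets did. The members were chosen with results of these data in view, so their share and the size of their differences are descriptions only. The median size of a member's difference was 0.62 on the log2 scale, against 0.13 over all probe sets tested.

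Polyamine synthesis is represented by Odc1, its rate-limiting enzyme, and by Srm. Odc1 (probe set 160084_at) read 9.47, 9.74, 8.94, 10.31 and 10.08 in TG 614, 619, 652, 657 and 661, against 9.67, 11.63, 9.85, 11.74 and 11.83 in WT 612, 618, 650, 658 and 663. The 3 WT males stood together far above every other animal. The 3 TG males lay above both TG females and overlapped the WT females, the lowest of them (9.74) falling between WT 612 and WT 650. The groups overlapped when the sexes were pooled, but among females, and among males, the highest TG value lay under the lowest WT value.

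Odc1 was 2.35-fold lower in TG kidneys as a group, at 9.71 ± 0.54 against 10.94 ± 1.09 in WT (log2, SD, n = 5 each). That difference of -1.23 ± 0.47 (SE) did not pass without a covariate (limma, adjusted p = 0.31). With sex in the model it did, at -1.23 ± 0.22 (adjusted p = 0.0141, 95% interval -1.72 to -0.75), and in each of the 10 fits that left out 1 animal (adjusted p 0.00616 to 0.0433). It was lost on the 8 arrays of the first processing day alone, at -1.10 (adjusted p = 0.0832).

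Between the sexes Odc1 was higher by 1.41 ± 0.22 in males than in females (limma, genotype in the model, adjusted p = 0.00505), where 8.53% of all probe sets tested differed by sex. WT males averaged 11.73 ± 0.10 (SD, n = 3) and TG males 10.05 ± 0.29 (SD, n = 3), a gap of 3.22-fold. Females averaged 9.21 in TG and 9.76 in WT (n = 2 each), a gap of 1.47-fold. The gap between genotypes was thus -1.69 in males and -0.55 in females, and the difference between those gaps gave adjusted p = 0.996 (unadjusted p = 0.00301). In that test 0 of 7 members passed, where 0.0147% of all probe sets tested did. Odc1 and Arg2, 2 of 7 members, had an unadjusted p under 0.05, as had 283 of the 6814 probe sets.

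Other genes known to respond to androgen in mouse kidney were measured in the same animals. Of 5 tested, 0 passed between TG and WT by limma, with or without sex in the model, 3 lay lower and 2 higher, and their median difference was -0.08. Cyp2e1, a cytochrome P450 that is higher in male kidney, read 9.29, 12.03, 10.11, 12.29 and 12.49 in TG 614, 619, 652, 657 and 661, and 10.01, 12.96, 10.99, 12.64 and 12.95 in WT 612, 618, 650, 658 and 663. Every TG value lay below the WT values of its sex except those of TG 652, and the difference of -0.67 gave an adjusted p of 0.116 in the fit with sex. Kap, the kidney androgen-regulated protein, differed by -0.08 (adjusted p = 0.701 in the fit with sex). In these arrays Kap itself did not differ past the threshold between males and females (0.27, limma adjusted p = 0.105). Cyp2j5, Cyp4b1 and Gusb were higher in males (adjusted p = 0.00598, 0.00742 and 0.014). Between TG and WT they differed by -0.41, 0.34 and 0.02 (adjusted p = 0.152, 0.529 and 0.967 in the fit with sex).

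Srm (92540_f_at, a probe set of a type that can detect related sequences) read 7.27, 7.12, 6.72, 7.13 and 7.20 in TG 614, 619, 652, 657 and 661, against 6.45, 7.03, 6.82, 7.61 and 7.40 in WT 612, 618, 650, 658 and 663. The TG values lay inside the WT range. The difference was 0.03 ± 0.20 (limma, SE, adjusted p = 0.974), and its 95% interval ran from -0.43 to 0.48. The fall of Odc1 thus had no counterpart of that size in Srm, although differences within these bounds could not be told from 0 with 5 animals per group.

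Control and breakdown of polyamines had 1 measured member, Sat1 (96657_at). It read 11.61, 11.44, 11.16, 11.54 and 11.39 in TG 614, 619, 652, 657 and 661, against 11.51, 11.63, 11.12, 11.27 and 11.18 in WT 612, 618, 650, 658 and 663. The groups overlapped over most of their range. The difference was 0.09 ± 0.13 (limma, SE, adjusted p = 0.817, 95% interval -0.19 to 0.36), the narrowest such interval among the members.

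**Figure D1:**
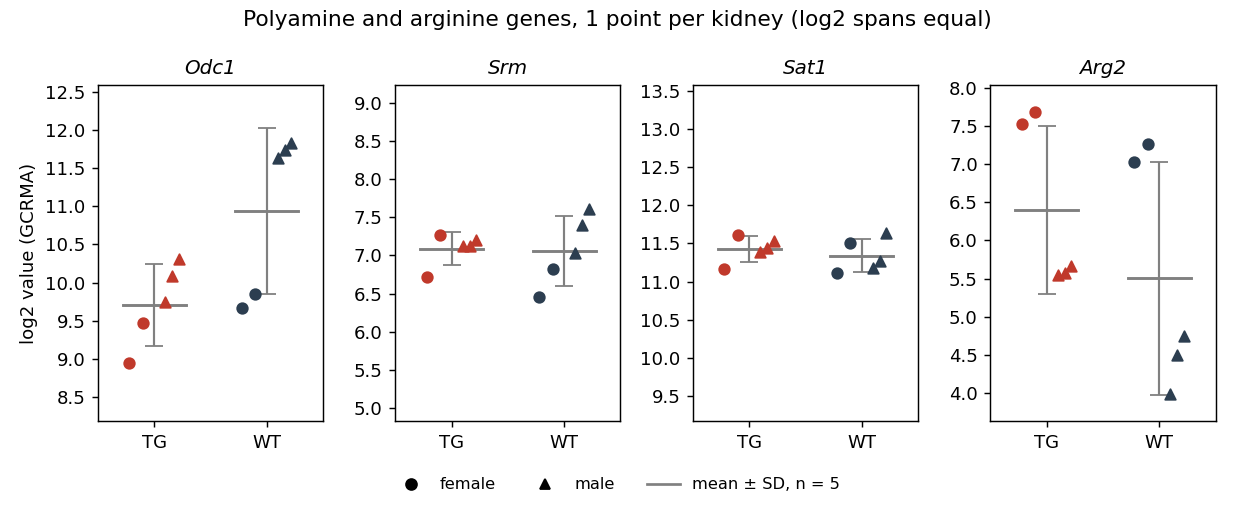
Log2 GCRMA values of Odc1, Srm, Sat1 and Arg2 in each kidney (circles females, triangles males), TG left of WT in every panel; grey bars are the mean ± SD over 5 animals, and the vertical axes span the same number of log2 units. Odc1 in TG males (9.74 to 10.31) lies below WT males (11.63 to 11.83), Arg2 in TG males (5.54 to 5.67) lies above WT males (3.99 to 4.75), and Srm and Sat1 overlap.

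Arginase 2 (Arg2), the mitochondrial enzyme that splits arginine into urea and ornithine, the substrate of Odc1, had 1 probe set over the floor (98473_at). It read 7.68, 5.67, 7.53, 5.57 and 5.54 in TG 614, 619, 652, 657 and 661, against 7.03, 4.75, 7.26, 3.99 and 4.49 in WT 612, 618, 650, 658 and 663. Females stood well above males in either group, and within each sex the lowest TG value lay over the highest WT value. WT 658, at 3.99, lay just under the floor. The other Arg2 probe set (161246_at) lay under the floor on all 10 arrays.

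Pooled over the sexes, Arg2 averaged 6.40 ± 1.10 in TG and 5.50 ± 1.52 in WT (SD, n = 5 each), and the difference did not pass (0.89 ± 0.73, SE, limma adjusted p = 0.661). In the fit with sex it rose by 0.89 ± 0.17 (adjusted p = 0.021, 95% interval 0.51 to 1.28). That call held in 6 of the 10 fits that left out 1 animal, and was lost without TG 619, TG 657, TG 661 or WT 663 (adjusted p 0.0512 to 0.0607) and on the first processing day alone (0.86, adjusted p = 0.108). Arg2 was lower by 2.37 ± 0.18 in males than in females (adjusted p = 5.69e-05). The gap between TG and WT was 1.18 in males and 0.46 in females, with adjusted p = 0.996 for the difference between them (unadjusted p = 0.0319).

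Odc1 and Arg2 therefore had opposite signs in 2 respects. Odc1 was higher in males and lower in TG, Arg2 was lower in males and higher in TG, and for either gene the mean of TG males lay between that of WT males and those of the females. Groups that did not overlap within either sex, with the same direction in each, were seen for Odc1, Gamt and Arg2, and for 9.73% of all probe sets tested.

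**Figure D2:**
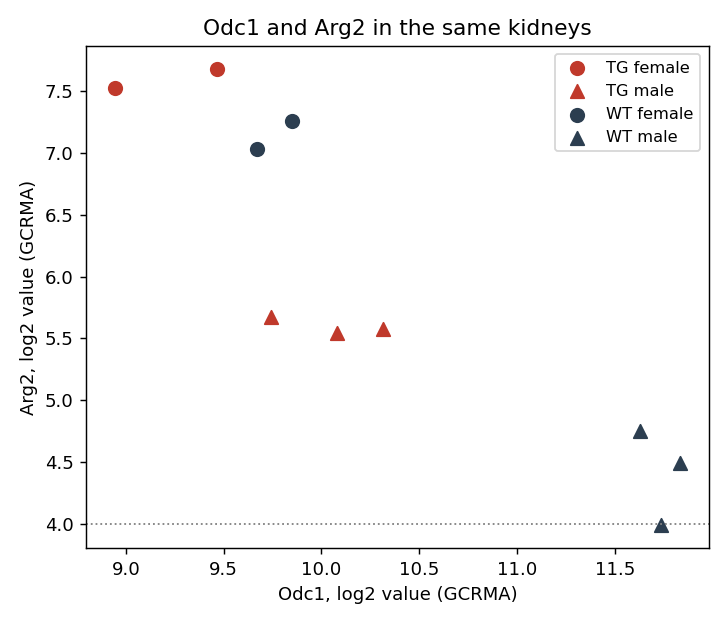
Each point is 1 kidney, with the Odc1 log2 value on the horizontal axis and the Arg2 log2 value on the vertical axis (red TG, dark WT, circles females, triangles males; the dotted line is the floor of 4). The 3 WT males lie at the lower right (Odc1 11.63 to 11.83, Arg2 3.99 to 4.75), and the 3 TG males lie to their upper left (Odc1 9.74 to 10.31, Arg2 5.54 to 5.67).

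Of the genes of creatine synthesis, Gamt had lower mRNA values in TG kidneys. Gamt (101408_at) read 5.56, 5.51, 6.13, 6.03 and 5.81 in TG 614, 619, 652, 657 and 661, against 6.25, 6.69, 6.45, 6.50 and 6.88 in WT 612, 618, 650, 658 and 663. The highest TG value, 6.13, lay under the lowest WT value, 6.25, a separation that 4.08% of all probe sets tested showed in one direction or the other. Gamt was 1.68-fold lower, at 5.81 ± 0.27 in TG and 6.55 ± 0.24 in WT (SD, n = 5 each).

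The fall of Gamt by 0.75 ± 0.15 passed narrowly (limma, SE, adjusted p = 0.0481) and again with sex in the model (adjusted p = 0.0247). The exact permutation test over the 10 animals gave p = 0.00794, unadjusted, the smallest it allows. Of the 10 fits that left out 1 animal, only that without WT 612 kept the call (adjusted p = 0.0417), and the others gave adjusted p between 0.0557 and 0.141, with differences of -0.66 to -0.82. With sex in the model the call held in 4 of 10, those without TG 652, TG 657, WT 612 or WT 658 (adjusted p 0.0123 to 0.0672 over the 10), and on the first processing day alone it was lost (-0.66, adjusted p = 0.117). The second Gamt probe set (161644_f_at) lay under the floor on all 10 arrays.

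Gatm, which catalyses the step before Gamt and is the committed step of creatine synthesis, was measured by 96336_at. It read 12.29, 11.94, 12.38, 12.43 and 12.23 in TG 614, 619, 652, 657 and 661, against 12.53, 12.20, 12.76, 12.33 and 12.51 in WT 612, 618, 650, 658 and 663. The groups overlapped, and the difference was -0.21 ± 0.13 (limma, SE, adjusted p = 0.533, 95% interval -0.49 to 0.07). With sex in the model it was -0.21 ± 0.11 (adjusted p = 0.355).

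Creatine enters cells through the transporter Slc6a8, which is not a member but belongs to the 5 other creatine genes listed. Slc6a8 (95625_at) read 10.02, 9.88, 9.96, 9.90 and 9.75 in TG 614, 619, 652, 657 and 661, against 10.40, 10.48, 10.32, 10.28 and 10.27 in WT 612, 618, 650, 658 and 663. Again no TG value reached the WT range. It fell by 0.45 ± 0.08 (limma, SE, adjusted p = 0.0358), and by the same amount once sex was a covariate (adjusted p = 0.0126). Without the covariate the call held in 1 of the 10 fits that left out 1 animal, that without WT 650, and with sex in the model in 10 of 10. The other Slc6a8 probe set lay under the floor on all arrays.

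Creatine kinases store energy as phosphocreatine. Of those listed, Ckb and Ckmt1 were measured, and Ckm and Ckmt2 lay under the floor on all 10 arrays. Ckb (93126_at), the cytosolic brain-type kinase, read 9.59, 9.15, 9.27, 9.52 and 9.75 in TG 614, 619, 652, 657 and 661, against 8.70, 8.25, 9.48, 8.90 and 8.85 in WT 612, 618, 650, 658 and 663. All TG values lay above all WT values but that of WT 650. The difference was 0.62 ± 0.20 (limma, SE, adjusted p = 0.227, 95% interval 0.17 to 1.07), and did not pass with sex in the model either (adjusted p = 0.129). The exact permutation p was 0.0238, unadjusted. Without WT 650 the difference was 0.78, with adjusted p = 0.0581, and adjusted p = 0.0489 with sex in the model.

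The mitochondrial kinase gene Ckmt1 (160565_at), was also among the other creatine genes. It read 8.61, 8.23, 8.52, 8.05 and 8.14 in TG 614, 619, 652, 657 and 661, against 7.47, 7.11, 8.08, 7.07 and 7.26 in WT 612, 618, 650, 658 and 663. WT 650 was again the WT animal that reached the TG range, but within each sex the TG values lay above the WT values, which was not so for Ckb. Its difference of 0.91 ± 0.19 missed the threshold without a covariate (limma, SE, adjusted p = 0.0543), and it rose by 0.91 ± 0.12 in the fit with sex (adjusted p = 0.00333), a call kept in 10 of 10 fits that left out 1 animal. In WT 650 the fat marker Adipoq read 8.17, against 3.07 to 4.91 on the other arrays. The other fat markers stood out less or not at all there. Fabp4 read 4.51 in WT 650, against 3.83 to 4.22 on the other arrays. Lep read 4.57, inside the range of the others (4.35 to 4.87), and Cidec lay under the floor. The part of other tissue in the values of WT 650 was not tested.

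**Figure D3:**
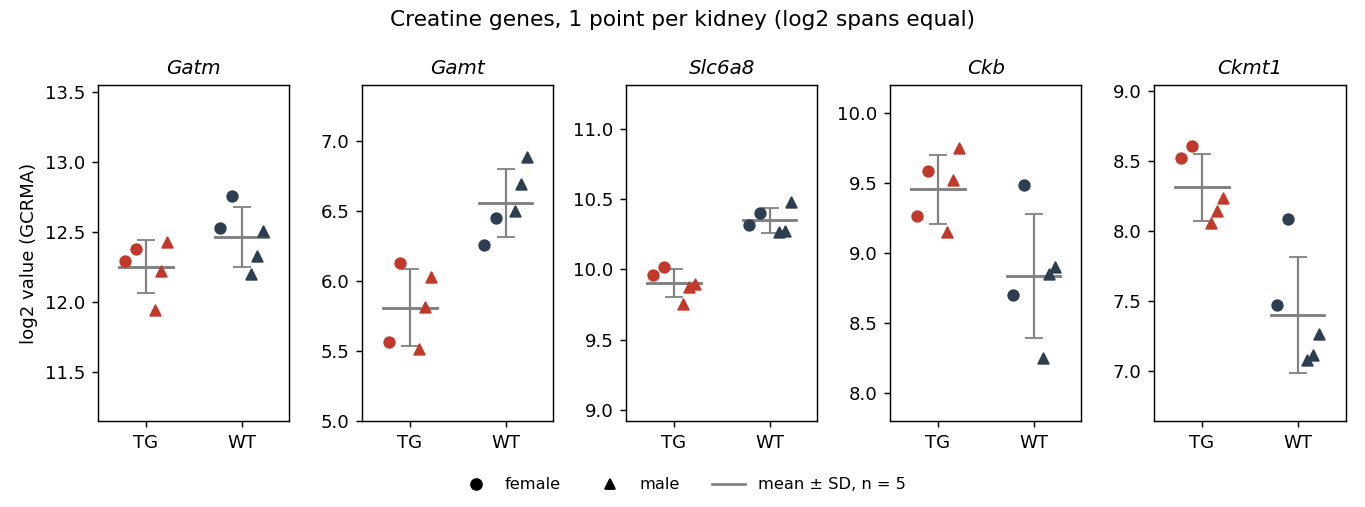
Log2 GCRMA values of the creatine genes in each kidney (circles females, triangles males), TG left of WT, with grey bars for the mean ± SD over 5 animals and equal log2 spans on the vertical axes. Gamt and Slc6a8 show no overlap between TG and WT, Gatm overlaps, and in Ckb and Ckmt1 the WT female 650 (9.48 and 8.08) is the WT point that reaches the TG values.

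The roles are set side by side here by the fit with sex, in which 4.18% of all probe sets tested passed. In polyamine synthesis, with sex in the model, 1 of 2 measured members fell (Odc1, -1.23) and the other (Srm) was at 0.03. In the control and breakdown of polyamines the 1 measured member was at 0.09. In creatine synthesis 1 of 2 fell (Gamt, -0.75), with Gatm at -0.21. The difference between roles was not tested.

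**Figure D4:**
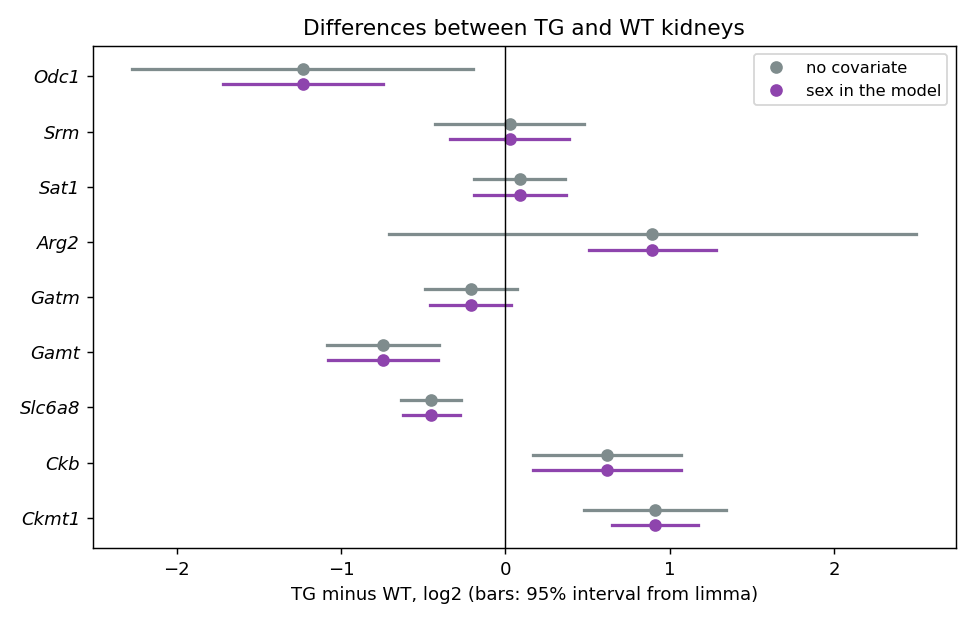
TG minus WT difference (log2, horizontal axis) of 7 members and of Slc6a8 and Ckmt1, with the 95% interval from limma, without a covariate (grey) and with sex in the model (purple). The differences are the same in either fit because each group holds 2 females and 3 males; the interval of Arg2 narrows from -0.71 to 2.50 without the covariate to 0.51 to 1.28 with it.

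The other genes of these pathways mostly showed no call. Of 8 tested arginine and ornithine genes 0 passed by limma, and with sex in the model 1 fell, Slc25a15, the mitochondrial ornithine carrier (-0.50 ± 0.11, SE, adjusted p = 0.0352; adjusted p = 0.106 without the covariate). That call held in 2 of the 10 fits with sex that left out 1 animal. The argininosuccinate lyase gene Asl differed by -0.28 (adjusted p = 0.337), and its groups did not overlap, as in 4.08% of all probe sets tested. The list's median was -0.09, against -0.02 over all probe sets tested. Of 5 tested polyamine genes 0 passed in either fit, with a median of 0.05. The smallest p in that list belonged to Aoc1, a diamine oxidase near the floor (0.33, adjusted p = 0.386), and to Azin1, the antizyme inhibitor (0.10, adjusted p = 0.701). Of 5 creatine genes listed besides the members 2 were tested, Slc6a8 and Ckmt1.

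Markers of some kidney segments and of leukocytes differed in the same samples. By limma, 0 of 2 collecting duct, 0 of 2 podocyte and 0 of 4 endothelial markers tested passed, with or without sex in the model. Their median differences were 0.16, 0.07 and 0.06. The 2 collecting duct markers had opposite signs. Aqp2 differed by -0.14, and Hsd11b2 by 0.47 (limma adjusted p = 0.276, and 0.0644 in the fit with sex). Of 7 tested proximal tubule markers, 6 lay lower in TG, 0 passed without a covariate and 3 fell with sex in the model (Slc34a1, Slc22a6 and Slc22a12). Their summed level ran from 14.93 to 15.26 in TG and from 15.24 to 15.61 in WT (log2 of the summed linear values). Cubn, Fbp1, Aqp1 and Lrp2 differed by -0.26, -0.22, -0.07 and 0.01, without passing. With genotype in the model, Slc22a6 and Slc22a12 were higher in males than in females by 1.38 and 0.90, and Cubn differed by -0.60 (limma adjusted p = 0.00181, 0.0107 and 0.0107). Of the distal convoluted tubule markers, Slc12a3 rose in the fit with sex (0.92, limma adjusted p = 0.00328, against 0.0722 without the covariate). Pvalb lay lower without passing (-0.91). Their summed level ran from 12.22 to 12.96 in TG and from 11.33 to 12.27 in WT. That sum mostly follows Slc12a3, which alone ran from 12.18 to 12.89 in TG and from 11.12 to 12.10 in WT. Slc4a1, the measured marker of intercalated cells, rose in either fit (0.83, adjusted p = 0.0478 without a covariate and 0.00454 in the fit with sex). Its lowest TG value, 8.40, lay over its highest WT value, 8.23, and 4.08% of all probe sets tested had groups that did not overlap. Both thick ascending limb markers lay higher without passing (Umod 0.42 and Slc12a1 0.56), with a summed level of 13.70 to 14.12 in TG and 12.44 to 13.91 in WT. All 6 tested leukocyte markers lay higher. C1qa passed without a covariate (1.46, limma adjusted p = 0.0493) and 3 passed with sex in the model (C1qa, C1qb and Cd74). The summed level of the leukocyte markers ran from 11.49 to 12.43 in TG and from 10.67 to 11.17 in WT. It mostly follows Cd74, which alone ran from 11.05 to 11.84 in TG and from 10.16 to 10.74 in WT. Adgre1, Cd68 and Itgam were under the floor. In whole kidney, fewer cells of a type and less RNA per cell cannot be told apart, and the part of these shifts in the differences of Gamt, Slc6a8, Odc1, Arg2, Ckb and Ckmt1 was not tested.

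Each chip lot and fluidics station of the run records with animals of either group, and each of the ranges of animal numbers, gave the same sign for the members that passed. Odc1 differed by -1.04 among animals 612 to 619 and by -1.36 among 650 to 663, Gamt by -0.93 and -0.62, and Arg2 by 0.79 and 0.97. By chip lot, Odc1 differed by -0.78 in the first lot and -2.16 in the second, Gamt by -0.93 and -0.61, and Arg2 by 0.33 and 2.31. Sex was not balanced within lots: the first held 1 male in each group but 1 TG and 2 WT females, and the second held 1 TG female and 1 TG male against 2 WT males, so the lot values include a sex difference. With sex and lot in the model the difference was -1.22 for Odc1 (adjusted p = 0.0271), -0.78 for Gamt (0.0191) and 0.92 for Arg2 (0.0195). By fluidics station, Odc1 differed by -1.28 and -1.16, Gamt by -0.98 and -0.40, and Arg2 by 0.87 and 0.93.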

How the data were processed

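Kidney RNA of 10 mice was measured on 1 array each, from 6 ug of RNA per sample per the labels. The deposited table holds log2 values that the authors computed by GCRMA; the tool is named, without its version, in the submitters' processing notes. GCRMA corrects background and normalizes between arrays, and values near the floor are compressed. The log2 scale was read from the range of the values. Of 12488 probe sets, 66 controls were left out, 10833 name 1 gene, 396 name several and 1193 none. Where several probe sets name a gene, that of highest average value stands for it. Differences between TG and WT were fitted in limma 3.58.1 under R 4.3.3 (lmFit, eBayes, two-sided, Benjamini-Hochberg over 6814 probe sets, threshold 0.05), without a covariate, then with sex, read as female where Xist was over 6. The fits were tested on simulated data. Exact permutation tests were two-sided over 252 assignments. The number of arrays limits the precision. The limma p-values set each difference against the spread between these animals, with variances moderated over all probe sets tested.

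The members and gene lists were chosen with earlier results of these data known. The text names all members, the pathway genes past the threshold with or without sex, and the 3 genes most like Odc1 and Gamt. It also names the 2 genes with the smallest p in each pathway list, by the probe set that stands for the gene. Atp13a3 was named for its other probe set after its values were seen. The androgen-responsive genes tested are all named, and Cyp2e1 was picked to be given per animal after its values were seen. The named segment, leukocyte and other tissue markers were chosen from their lists after their values were seen. Chip lot, fluidics station and processing day came from the run records, per the file headers. Animals come from separate mice by title, with no replicate number shared between groups. Plots used matplotlib 3.10.9 under Python 3.11.15.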

Additional observations from a re-analysis of the deposited data

Results flagged for a closer look

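Srm in TG 652 stood apart from the other TG animals. Its log2 value was 6.72, against 7.12 to 7.27 in the other TG kidneys, and the gap to the nearest of them was 0.732 of the group's whole range, over the 0.71 that Dixon's criterion allows for 5 samples. It was the 1 such value among 14 groups of member values checked. Chance gives such a value in about 1 in 20 groups, so 1 among 14 groups is not unusual. Leaving out TG 652 raised the difference of Srm to 0.12 (limma, adjusted p = 0.955).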

How the results depend on the processing

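The signs of the Odc1, Gatm, Gamt, Arg2 and Ckb differences were the same under every alternative run. That of Srm, near 0, turned with array weights (-0.093), quantile normalization (-0.00296, also with sex in the model), chip lot in the model (-0.031), males alone (-0.20), animals 650 to 663 alone (-0.26), the second chip lot alone (-0.58) and the second fluidics station alone (-0.29), and ran from -0.13 to 0.16 with 1 animal left out (-0.11 to 0.13 with sex in the model). Sat1 turned to -0.045 in animals 612 to 619 alone, and Azin1 to -0.010 in animals 650 to 663 and -0.041 on the second station. The 1 call among the members, Gamt, was lost, leaving 0, with no filter, trended variances, median centring, 16 added to the linear values, station or day in the model, the first day, females, either number range, either lot or either station alone, at a threshold of 0.01, and in 9 of 10 fits without 1 animal (0 to 1 calls). With sex in the model there were 3 calls, 4 with number range added (Ckb rose, adjusted p = 0.0454), 2 in males alone (Odc1 and Arg2), 0 on the first day, and 1 to 3 without 1 animal, where 1 was left without TG 619, TG 661 or WT 663.

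Over all probe sets, 83 passed, against 48 with no filter, 36 with median centring, 52 with station in the model, 32 with day in the model or on the first day alone, 18 at a threshold of 0.01 and 31 to 92 without 1 animal, with 64 without WT 612, 92 without WT 650 and at most 45 without any other. Sex in the model gave 285, and sex with number range 549. Subsets gave 1 (females), 2 (animals 612 to 619), 4 (650 to 663), 3 in the first and 3 in the second chip lot, and 7 and 2 on the stations, where fewer arrays were compared. Day in the model amounts to leaving out TG 661 and WT 663, the lone arrays of their days. Alternatives with sex in the model beyond sex and number range, and single lots and stations, were added after the data were seen. No paired analysis was possible because the groups share no replicate number. Values near the floor limit what Arg2 in WT males can show.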

Other observations

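Gamt takes its methyl group from S-adenosylmethionine, and genes of that methyl supply were measured too. Of 9 tested methyl donor genes 0 passed between TG and WT by limma, 4 lay higher and 5 lower, and the median was -0.07. When sex was a covariate 1 fell, Bhmt2, a homocysteine methyltransferase (-0.58 ± 0.12, SE, adjusted p = 0.0258, and adjusted p = 0.356 without the covariate), a call kept in 5 of 10 fits that left out 1 animal. Ahcy, which clears the S-adenosylhomocysteine left by methylation, differed by -0.31 (adjusted p = 0.104 in the fit with sex). Its other probe sets differed by -0.25 and by -0.55, and the last of these passed in the fit with sex (adjusted p = 0.0352).

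Across the 10 arrays, and among 5295 genes, the patterns most like that of Odc1 were those of Rangap1 (Pearson r = 0.978, Spearman rho = 0.939), Gnpat (0.976 and 0.952) and Tmc6 (0.967 and 0.794). Those most like Gamt were Egfr (0.967 and 0.976), Gpam (0.95 and 0.939) and Cryl1 (0.941 and 0.915). These values describe 10 arrays that share genotype and sex differences, and each gene was picked as the highest of all. Of the 6 genes, Egfr differed between TG and WT past the threshold in the fit with sex (-0.75, adjusted p = 0.03), and 0 did without it.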
